A study of Homo sapiens with 14 samples.

Results

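RBM3 and CIRBP, the cold-inducible RNA-binding proteins, were followed across 3 prostate cancer cell lines treated with an inhibitor of the Mediator kinases. Both genes were chosen by name, 2 of the 62703 genes in the count data. RBM3 had been selected on its response to the inhibitor in LNCaP and 22Rv1 cells in these same libraries, and CIRBP was added as its family partner. Their responses to the inhibitor are therefore given as descriptions without a test.

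LNCaP, 22Rv1 and PC3 cells received SEL120-34A, which inhibits the kinases CDK8 and CDK19, at 1.5 µM for 3 days, or its DMSO vehicle for the same time. LNCaP and 22Rv1 had 3 libraries in each arm (LNCaP DMSO, LNCaP SEL120-34A, 22Rv1 DMSO and 22Rv1 SEL120-34A), and PC3 had 1 library in each arm (PC3 DMSO and PC3 SEL120-34A). The study describes LNCaP as androgen-dependent and sensitive to enzalutamide, an antiandrogen, 22Rv1 as resistant to this drug although it responds to androgen, and PC3 as insensitive to it. No genotype or knockdown differed between the arms, the labels give no culture temperature, and each line is a single established culture model. Messenger RNA was measured with BRB-seq, which barcodes each sample at reverse transcription and then reads the 3′ ends of transcripts in a pool.

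RBM3 and CIRBP are small proteins built from an RNA recognition motif and a glycine-rich tail. Both are known as the vertebrate proteins whose transcripts accumulate when cells are cooled mildly. They bind other messenger RNAs and affect their stability, polyadenylation and translation, and both have been linked to the circadian clock. In prostate cancer tissue RBM3 has been studied as a marker. CDK8 and CDK19 belong to the kinase module of Mediator, the complex that connects transcription factors with RNA polymerase II.

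RBM3 (ENSG00000102317.18) lies on the plus strand of chromosome X, from 48574449 to 48581162 (GRCh38), and its reference transcript has 7 exons. CIRBP (ENSG00000099622.14) lies on the plus strand of chromosome 19, from 1259384 to 1274880, and its reference transcript has 6 exons. The annotation lists 11 transcripts for RBM3 and 46 for CIRBP, and 3′ counting gives 1 value per gene over all of them. The longest run of bases that any RBM3 transcript shared with any CIRBP transcript was 15 bases. Reads longer than this could be told apart between them. The antisense gene CIRBP-AS1 overlaps CIRBP and held 0 to 5 counts per library. Each unnamed gene that overlaps RBM3 held at most 1 count in all libraries together. Of these, ENSG00000279528 lies on the same strand over the last exon of RBM3. It shares runs of 50 bases with the last 500 bases of the RBM3 reference transcript. How reads that fit both genes were counted is not known. Its 0 counts therefore do not show that all RBM3 reads were counted.

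Promoter sequences are shown because the pair is grouped by a shared response to cold. They are the 250 bases upstream of each RefSeq gene start on GRCh38.p14, read on the plus strand from 5′ to 3′. Capitals mark matches, on either strand, to the motifs spelled out after the sequences. The first window is chrX:48574234-48574483 and the second is chr19:1269082-1269331. The RefSeq starts differ from the starts of the gene spans given above. The CIRBP window lies inside its span, which begins at 1259384, and the RBM3 window runs past 48574449. Sequence upstream of other annotated starts was not examined.
RBM3: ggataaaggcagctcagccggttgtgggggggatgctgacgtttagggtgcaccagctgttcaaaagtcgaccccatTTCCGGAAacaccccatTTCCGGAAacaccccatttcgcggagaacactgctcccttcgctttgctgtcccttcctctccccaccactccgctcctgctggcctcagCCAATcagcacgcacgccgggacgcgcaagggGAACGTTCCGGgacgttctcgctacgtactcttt
CIRBP: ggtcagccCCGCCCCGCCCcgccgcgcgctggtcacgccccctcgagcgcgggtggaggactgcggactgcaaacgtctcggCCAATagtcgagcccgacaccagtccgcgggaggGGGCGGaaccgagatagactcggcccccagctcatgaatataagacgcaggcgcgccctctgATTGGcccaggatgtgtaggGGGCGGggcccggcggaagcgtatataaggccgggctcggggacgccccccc

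The windows held different motifs. CIRBP had 4 matches to the GC box GGGCGG, the letters bound by Sp1, and RBM3 had 0, where 42.6% of the 35116 promoters in the table held at least 1. RBM3 had 5 matches to CCGGAA, the core read by ETS factors, and CIRBP had 0, where 14.5% of all promoters held at least 1. RBM3 also held 2 matches to TTCNNGAA and 1 to GAANNTTC, the paired half-units of heat shock elements, which 6.62% and 5.78% of all promoters held. These overlap, since 4 of the 5 ETS matches lie inside the pair of TTCNNGAA matches. Both TTCNNGAA matches read TTCCGGAA, which holds CCGGAA on either strand and so counts as 2 ETS matches. Both genes had the CCAAT box (1 match in RBM3 and 2 in CIRBP, 32.0% of all promoters). Neither window held the E-box CACGTG (6.34%) or TCCCCGCC, letters described as a mild cold response element (7.75%). The RBM3 window repeated a run of 17 bases exactly, at 180 and 163 bases before the start, where CIRBP had no repeat over 9 bases. Each copy of the RBM3 run holds 1 of the TTCNNGAA matches. A match of letters is a description and not a bound site.

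Total counts ranged from 246063 to 909176 per library, so the limit set by a count of 0 (3 counts) was 3.30 to 12.2 CPM, read counts scaled to library size. Both genes were far above it in all 14 libraries. KLK3, which encodes prostate-specific antigen, was at 1218 ± 167 CPM (SD, n = 3) in LNCaP DMSO against 7.62 in PC3 DMSO. CAV1, the caveolin of mesenchymal-like lines, was at 637 CPM in PC3 DMSO. The DMSO libraries of LNCaP and PC3 thus matched the line on their labels. In 22Rv1 DMSO, KLK3 was at 20.4 CPM, and FOLH1, the prostate-specific membrane antigen, was at 148 CPM. All treated 22Rv1 libraries were shallower than their controls. The share of counts from mitochondrially encoded genes was 13.9% to 17.3% for the LNCaP controls and 16.5% to 23.3% for the treated LNCaP libraries. The corresponding ranges for 22Rv1 were 7.60% to 9.82% and 9.52% to 13.1%.

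In LNCaP cells, RBM3 stood at 265, 309 and 296 CPM in the DMSO libraries (290 ± 22.7, SD, n = 3). With SEL120-34A it stood at 101, 97.6 and 133 CPM (111 ± 19.5, SD, n = 3). Every treated library was far below every control, and the values rested on 118 to 212 counts in DMSO and 26 to 63 counts with the inhibitor. The log2 fold change was -1.33 ± 0.21 (SE, 95% interval -1.75 to -0.90). Of 7086 genes tested, 55 (0.776%) were called lower and 141 (1.99%) higher in LNCaP at an adjusted p under 0.05. RBM3 was 81st from the lowest log2 fold change, well outside the band from -0.67 to 0.75 that held all genes between the 5th and 95th percentiles. With library totals in place of TMM scaling, the LNCaP calls split into 90 lower and 99 higher genes, and RBM3 changed by -1.41. In bulk libraries, fewer cells that express a gene and less of its RNA per cell cannot be told apart.

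In 22Rv1 cells, RBM3 stood at 516, 305 and 367 CPM in DMSO (396 ± 109, SD, n = 3) and at 298, 124 and 262 CPM with SEL120-34A (228 ± 91.5, SD, n = 3). The arms did not overlap, but the lowest control and the highest treated library were close, at 305 and 298 CPM. The log2 fold change was -0.73 ± 0.19 (SE, 95% interval -1.10 to -0.35), 465th from the lowest. In this line 110 genes (1.55%) were called lower and 294 (4.15%) higher, and 231 lower and 144 higher with library totals, a scaling that gave an all-gene median of -0.14 and an RBM3 value of -0.86. The spread came from 1 library in each arm. Without 22Rv1 SEL120-34A replicate 2, the shallowest library with 29 RBM3 counts and the highest mitochondrial share of the line (13.1%), the change was -0.47. Without 22Rv1 DMSO replicate 1 it was -0.53. The part of depth and mitochondrial share in the value was not tested. With all libraries thinned to 246063 counts, the changes were -0.74 in 22Rv1 and -1.15 in LNCaP. Arms without overlap were also found for genes that were not called, such as RBM17 in LNCaP and CSNK1E in 22Rv1. The share of all genes without overlap was not counted.

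The RBM3 response was -0.60 ± 0.29 on the log2 scale in LNCaP relative to 22Rv1 (SE, 95% interval -1.18 to -0.02). This interval is not adjusted for the number of genes or for the choice of RBM3 on its responses. It therefore does not show that the lines differ. The value ran from -0.86 to -0.39 over 21 alternatives. PC3 cells, with 1 library per arm, had 219 CPM of RBM3 in DMSO (201 counts) and 139 CPM with SEL120-34A (79 counts). The log2 ratio was -0.66 (95% exact interval -1.05 to -0.28, counting error only), and 53 of the 2787 PC3 genes with a mean of at least 50 counts had a lower ratio. No replicate check is possible for PC3. RBM3 was thus lower with the inhibitor in each of the 3 lines, and the values in 22Rv1 and PC3 lay close to each other.

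**Figure D1:**
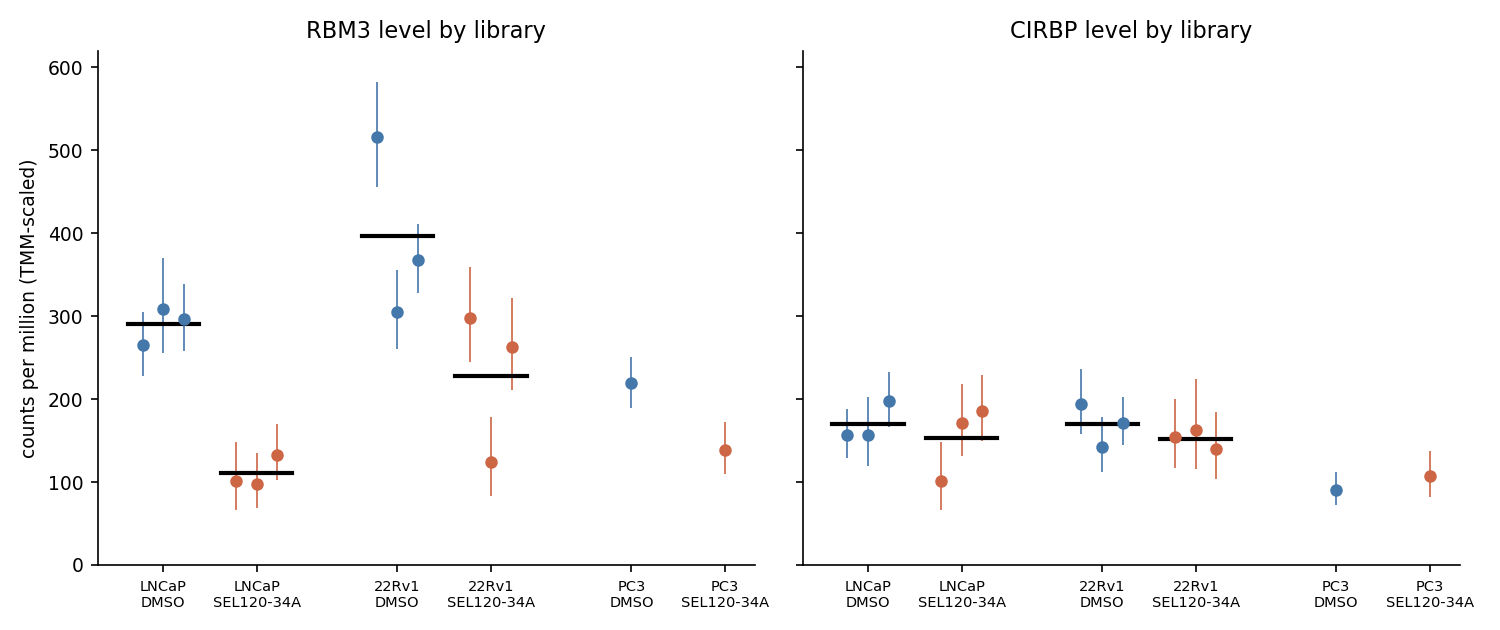
RBM3 (left) and CIRBP (right) in each library, in TMM-scaled CPM, with points as libraries, vertical lines as 95% exact counting intervals and horizontal bars as group means. RBM3 points with SEL120-34A (orange) lie below the DMSO points (blue) of the same line, whereas CIRBP points of the 2 arms overlap in LNCaP and 22Rv1.

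CIRBP stayed within its replicate spread. In LNCaP it was at 156, 157 and 197 CPM in DMSO (170 ± 23.3, SD, n = 3) and at 101, 171 and 186 CPM with SEL120-34A (153 ± 45.1, SD, n = 3). A single treated library was low, and the other two lay inside the range of the controls. The log2 fold change was -0.09 ± 0.18 (SE, 95% interval -0.45 to 0.27), and 0.08 without LNCaP SEL120-34A replicate 1. In 22Rv1 it was at 194, 142 and 172 CPM in DMSO (169 ± 26.1, SD, n = 3) and at 154, 163 and 140 CPM with the inhibitor (152 ± 11.8, SD, n = 3). These arms overlapped as well, with a log2 fold change of -0.15 ± 0.19 (SE, 95% interval -0.52 to 0.23). Changes of the size fitted for RBM3 lay outside both intervals, while smaller changes in either direction lay inside. The effect in LNCaP minus that in 22Rv1 was 0.06 ± 0.26 (SE, 95% interval -0.46 to 0.58). In PC3, CIRBP was at 90.4 CPM in DMSO and 107 CPM with SEL120-34A, a log2 ratio of 0.24 (95% exact interval -0.26 to 0.74, counting error only). This interval includes 0, and the median ratio of all PC3 genes was 0.03.

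**Figure D2:**
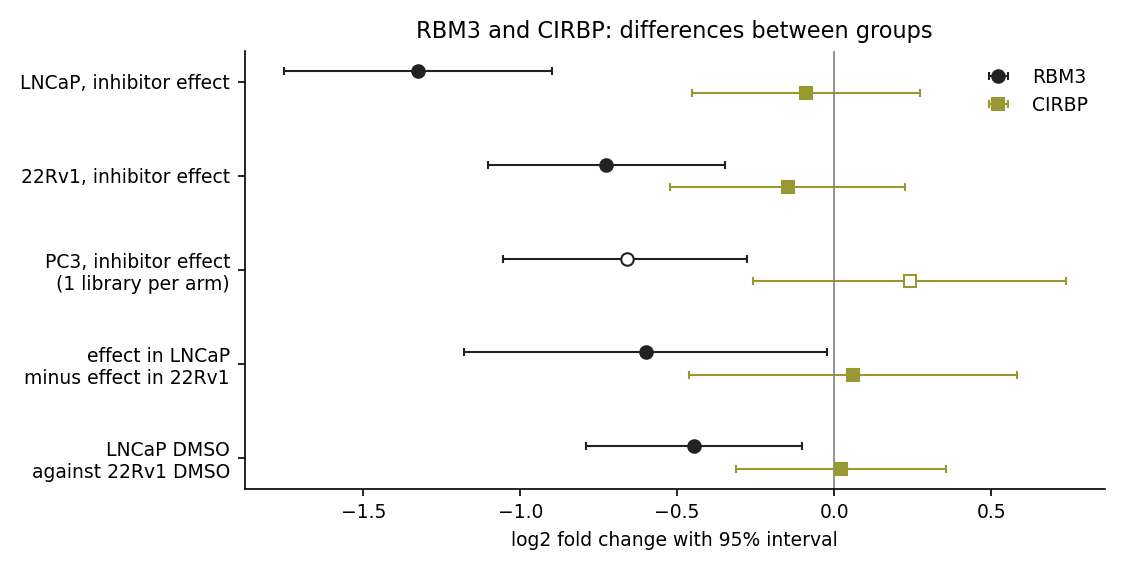
Log2 differences of RBM3 (circles) and CIRBP (squares) between groups, with 95% intervals from the edgeR model (filled symbols) or, in PC3, exact counting intervals of 1 library per arm (open symbols). The inhibitor effect on RBM3 was -1.33 in LNCaP, -0.73 in 22Rv1 and -0.66 in PC3, and every CIRBP interval includes 0.

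The count ratio of RBM3 to CIRBP within a library does not depend on library scaling. It compares libraries and says nothing of which transcript was more abundant. RBM3 was selected on its response and CIRBP changed little, so a lower ratio with the inhibitor restates the RBM3 response and adds no support. The log2 ratio was 0.76, 0.98 and 0.59 in LNCaP DMSO (0.77 ± 0.19, SD, n = 3) and 0, -0.81 and -0.48 with SEL120-34A (-0.43 ± 0.41, SD, n = 3). All treated LNCaP libraries were below all controls. In 22Rv1 it was 1.41, 1.10 and 1.10 in DMSO (1.20 ± 0.18, SD, n = 3) and 0.95, -0.39 and 0.91 with SEL120-34A (0.49 ± 0.76, SD, n = 3). The arms were again apart, with replicate 2 of the treated arm far below the other two. In PC3 the log2 ratio was 1.28 in DMSO and 0.37 with the inhibitor. The line-centred log2 levels of the pair had a Pearson r of 0.35 over the 12 LNCaP and 22Rv1 libraries, given as a description because libraries share lines and depth.

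**Figure D3:**
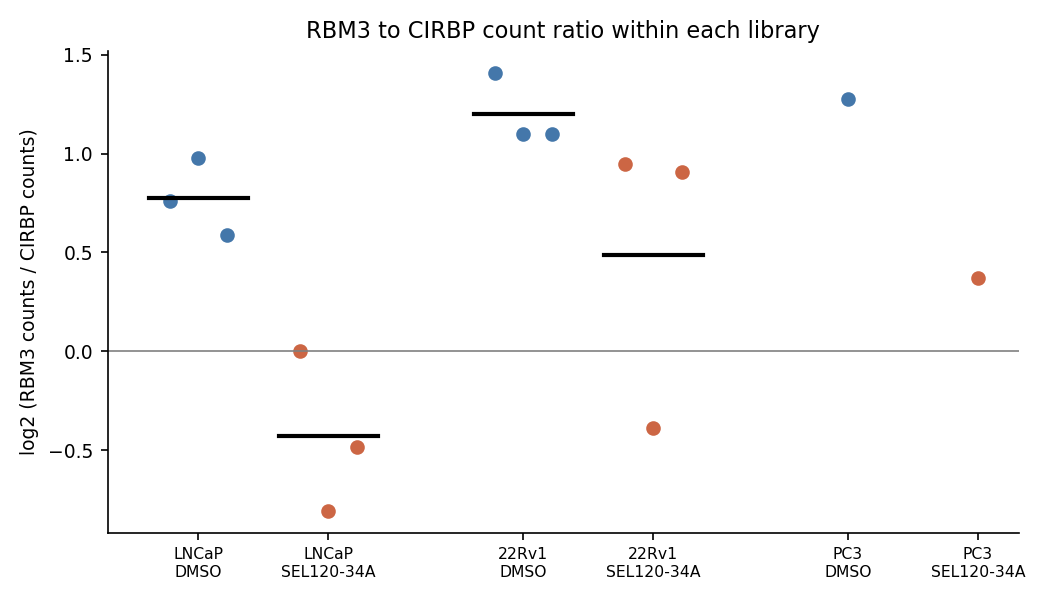
Log2 ratio of RBM3 counts to CIRBP counts in each library, with points as libraries and bars as group means of 3 libraries. Treated libraries (orange) lie below the DMSO libraries (blue) of the same line, with means of 0.77 and -0.43 in LNCaP and 1.20 and 0.49 in 22Rv1.

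Whether the lines differed without the inhibitor was not part of the selection and was tested, on control libraries that the responses share. RBM3 was lower in LNCaP DMSO than in 22Rv1 DMSO by -0.45 ± 0.17 on the log2 scale (SE, 95% interval -0.79 to -0.10, edgeR adjusted p = 0.0280). The DMSO groups overlapped, with 309 CPM as the highest LNCaP and 305 CPM as the lowest 22Rv1 library. The adjusted p ran from 0.00207 to 0.298 over the alternatives, and the call was lost without 22Rv1 DMSO replicate 1 (-0.24, adjusted p 0.275) and without LNCaP DMSO replicate 1 (-0.39, adjusted p 0.102). It was also lost with the DESeq2 Wald test (adjusted p 0.0878) and with limma-trend (adjusted p 0.298). CIRBP differed by 0.02 ± 0.17 (SE, 95% interval -0.31 to 0.35, edgeR adjusted p = 0.927). Of all genes, 1701 (24.0%) were higher and 1772 (25.0%) lower in LNCaP in this comparison, against 1211 and 2362 with library totals, a scaling that gave an all-gene median of -0.24 in place of -0.03. Ordered by mean DMSO level, RBM3 ran from 22Rv1 (396 CPM) through LNCaP (290) to the single PC3 library (219). The place of PC3 in this order was not tested. CIRBP was at 170 CPM in LNCaP and 169 CPM in 22Rv1, which did not differ beyond their spread, and at 90.4 CPM in the single PC3 library. The log2 RBM3 to CIRBP ratio was lower in LNCaP DMSO than in 22Rv1 DMSO by -0.43 (exact permutation test, two-sided, p = 0.1, the smallest that 3 against 3 libraries allow).

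With the inhibitor, calls among other genes numbered as RNA-binding motif proteins were too few to tell them from all genes. Of 40 in the file 25 could be tested, and with SEL120-34A 1 fell and 0 rose in LNCaP and 0 passed the test in 22Rv1, where 0.776% and 1.99% of all genes were lower and higher in LNCaP and 1.55% and 4.15% in 22Rv1. The gene that fell was RBMX, the X-linked hnRNP G that acts in splicing, from 309 ± 18.0 to 189 ± 58.1 CPM (SD, n = 3; log2 -0.63 ± 0.16 (SE), adjusted p 0.0229), a call lost in 5 of 22 alternatives. The median log2 fold change was -0.02 in LNCaP and -0.28 in 22Rv1, where 21 of the 25 values were below 0 and the lowest was -1.47, beside medians of all genes of 0.00076 and 0.0025. Between the DMSO groups 6 of the 25 were lower and 0 higher in LNCaP. The share lower was near that of all genes (25.0%), while 24.0% of all genes were higher. The list median was -0.37 beside -0.03 for all genes. RBM8A, a core protein of the exon junction complex, was among the lower genes (38.3 ± 12.8 against 84.5 ± 11.2 CPM (SD, n = 3), adjusted p 2.36e-04). RBM17, the splicing factor SPF45, was lower by a log2 value of -0.39 ± 0.16 (SE, adjusted p 0.0421), which was lost in 10 of 21 alternatives. RBM8B is a near-identical copy of RBM8A, so its value (-0.53) and that of RBM8A are uncertain.

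Proteins with a cold shock domain bind RNA through a fold found in bacterial cold shock proteins. Of 8 in the file 5 were tested, and 0 rose or fell in LNCaP (1.99% and 0.776% of all genes). In 22Rv1 1 fell and 0 rose (1.55% and 4.15% of all genes). Medians were -0.14 in LNCaP (-0.10 without YBX2, which had 1 or 2 counts in the treated LNCaP libraries) and -0.30 in 22Rv1. Between the DMSO groups 3 of the 5 were higher and 1 lower in LNCaP, where 24.0% of all genes were higher and 25.0% lower. YBX1, the abundant mRNA packaging protein, was at 740 ± 3.09 CPM in LNCaP and 335 ± 10.2 in 22Rv1 (SD, n = 3; adjusted p 3.92e-10). YBX3, its close relative, was at 588 ± 21.6 and 418 ± 33.6 CPM (SD, n = 3; adjusted p 6.53e-04). YBX2, the germ cell member, went the other way, with 6.50 ± 5.41 CPM in LNCaP (1 to 9 counts) and 134 ± 8.28 CPM in 22Rv1 (SD, n = 3; log2 -4.17 ± 0.32 (SE), adjusted p 4.02e-14).

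Temperature reaches CIRBP and RBM3 transcripts partly through splicing, where CDC-like kinases phosphorylate SR proteins. In a list of 14 such kinases, SR proteins, transcription factors and temperature-gated channels, 10 were tested, and in LNCaP 2 fell and 0 rose, where 0.776% of all genes were lower and 1.99% higher. SRSF2, an SR protein that acts in exon definition, fell from 482 ± 20.8 to 295 ± 39.0 CPM (SD, n = 3; log2 -0.66 ± 0.14 (SE), adjusted p 0.00443), and only limma-trend lost the call among 22 alternatives. SRSF7, a related SR protein, fell from 273 ± 28.0 to 169 ± 54.7 CPM (SD, n = 3; log2 -0.60 ± 0.17 (SE), adjusted p 0.0414), which 9 of 22 alternatives lost. In 22Rv1, 0 of the 10 were called, where 1.55% of all genes were lower and 4.15% higher. SRSF2 was at 425 ± 45.2 and 392 ± 81.9 CPM there (SD, n = 3). The difference between the lines was -0.58 ± 0.20 for SRSF2 (SE, adjusted p 0.223). List medians were -0.11 in LNCaP and -0.06 in 22Rv1. Between the DMSO groups 1 was higher and 3 were lower in LNCaP, near the shares of all genes (24.0% and 25.0%), among them SRSF10, an SR protein known to regulate splicing on heat shock (110 ± 7.19 against 169 ± 20.2 CPM (SD, n = 3), adjusted p 0.00103). HSF1, the heat shock transcription factor, was higher by 0.45 ± 0.19 (SE, adjusted p 0.0447), lost in 13 of 21 alternatives.

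Of 12 transcripts described as bound or regulated by RBM3 or CIRBP, 6 were tested. In LNCaP 0 were called, where 0.776% of all genes were lower and 1.99% higher. In 22Rv1 1 was higher, where 4.15% of all genes were higher. TXN, the redox protein thioredoxin whose mRNA CIRBP is known to bind, rose in 22Rv1 from 351 ± 4.37 to 568 ± 54.5 CPM (SD, n = 3; log2 0.70 ± 0.13 (SE), adjusted p 5.94e-04), and all 22 alternatives kept the call. In LNCaP it was at 486 ± 63.2 and 573 ± 52.4 CPM (SD, n = 3), and in PC3 at 334 and 423 CPM. The effects in LNCaP and 22Rv1 differed by -0.42 ± 0.19 (SE, adjusted p 0.379). Medians of the 6 were 0.19 in LNCaP and 0.30 in 22Rv1, or 0.42 in 22Rv1 without YAP1, a Hippo pathway coactivator with 0 to 3 counts per 22Rv1 library. Between the DMSO groups 2 were higher in LNCaP (24.0% of all genes), TXN and YAP1, the latter named after its value was seen.

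Of 21 core clock genes 6 were tested, and 0 were called with the inhibitor in either line. Of all genes, 0.776% were lower and 1.99% higher in LNCaP, and 1.55% and 4.15% in 22Rv1. At such shares, 0 of 6 is no result about clock genes. CSNK1E, a kinase of the period proteins, was at 133 ± 20.8 and 91.5 ± 18.8 CPM in 22Rv1 (SD, n = 3; log2 -0.56 ± 0.20 (SE), adjusted p 0.0987). Clock medians were 0.19 in LNCaP and -0.11 in 22Rv1, and between the DMSO groups 1 was higher and 2 were lower in LNCaP, beside 24.0% and 25.0% of all genes. Most clock genes were too low in counts to be tested.

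Heat shock genes, which respond to warming instead of cooling, gave 15 tested of 16. In LNCaP 0 passed the test, where 0.776% of all genes were lower and 1.99% higher. In 22Rv1 3 fell and 0 rose, where 1.55% of all genes were lower and 4.15% higher. HSP90AA1, the inducible HSP90 chaperone, fell in 22Rv1 from 785 ± 156 to 419 ± 57.4 CPM (SD, n = 3; log2 -0.88 ± 0.14 (SE), adjusted p 3.81e-05). HSPA8, the constitutive HSP70, fell from 1372 ± 268 to 856 ± 121 CPM (SD, n = 3; log2 -0.67 ± 0.13 (SE), adjusted p 0.00114). Every treated library was below every control for HSP90AA1 and HSPA8, but also for HSPB1 and HSPA4, list genes that were not called. The calls of HSP90AA1 and HSPA8 were kept in 22 alternatives. The third was HSPD1, the mitochondrial chaperonin (-0.58 ± 0.18 (SE), adjusted p 0.0479), named after its value was seen. The list medians were -0.10 in LNCaP (-0.07 without HSPA1A, which had at most 2 counts per library there) and -0.34 in 22Rv1. Between the DMSO groups 2 were higher and 4 lower in LNCaP, beside 24.0% and 25.0% of all genes, with BAG3, a partner of HSP70, at 75.1 ± 9.82 against 26.2 ± 3.34 CPM (SD, n = 3; adjusted p 4.37e-06). HSPA1B was lower (-1.95, adjusted p 5.23e-13), but it shares nearly all of its sequence with HSPA1A and its value is uncertain.

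**Figure D4:**
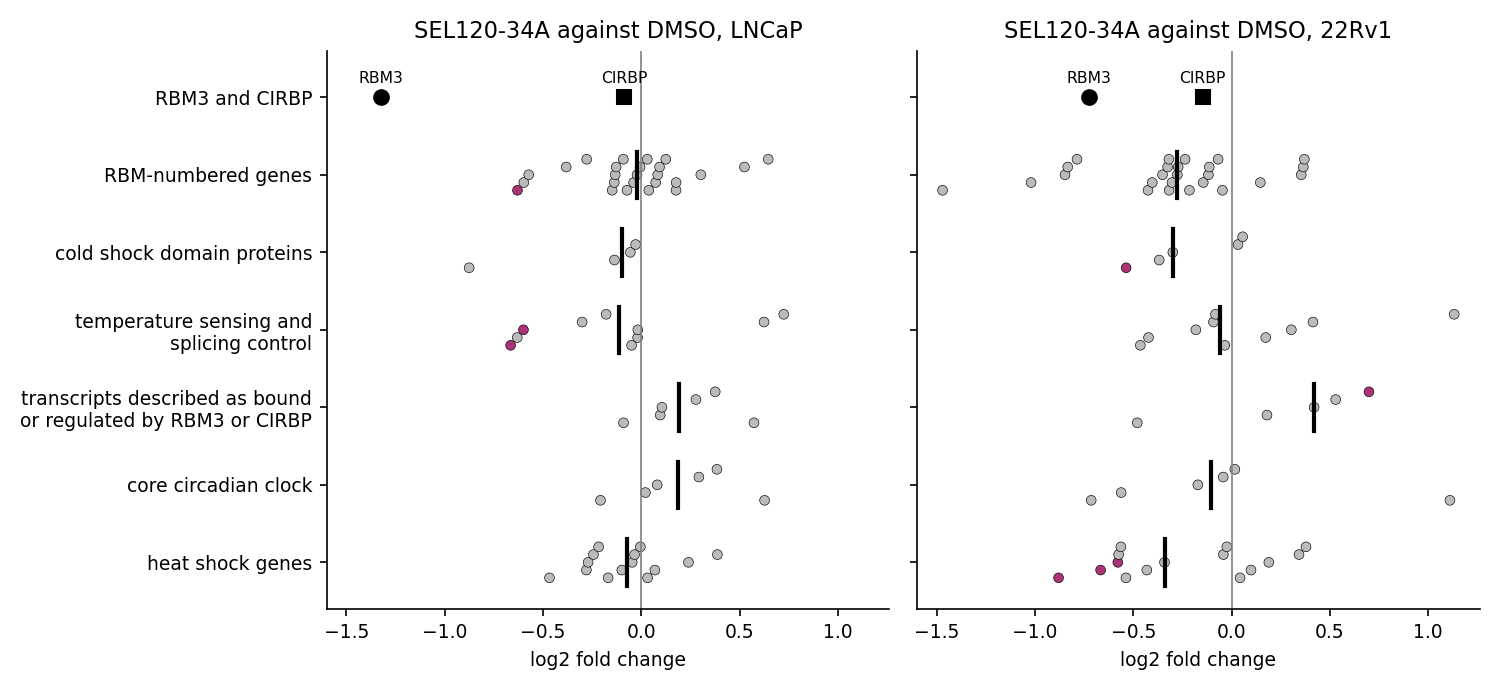
Log2 fold change with SEL120-34A in LNCaP (left) and 22Rv1 (right) for RBM3 and CIRBP (black, top) and for the tested genes of 6 lists, leaving out genes with 3 or fewer counts in every library of an arm, with vertical bars as medians of the points and purple points as genes with an adjusted p under 0.05. RBM3 at -1.33 in LNCaP lies below every gene of the lists in that line, and in 22Rv1 at -0.73 it lies inside the range of the lists, where HSP90AA1 is at -0.88.

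Among the 1651 genes with a mean of at least 50 counts, those with the pattern most like RBM3 were found by Pearson r of line-centred log2 CPM over the 12 libraries. They were HMGB1 (0.97), a chromatin-bending protein, BIRC5 (0.95), the mitotic protein survivin, DEK (0.95), a chromatin protein, HNRNPA1 (0.94), a splicing regulator, and CENPH (0.93), a kinetochore subunit. All of them changed less than RBM3, with log2 fold changes of -0.65 to -0.51 in LNCaP and -0.53 to -0.27 in 22Rv1. HMGB1 and HNRNPA1 have many near-identical pseudogenes, and their counts are uncertain. After group means were removed as well, r was 0.79 to 0.87 for these genes and 0 of the 5 stayed among the first 5. The treated library 22Rv1 SEL120-34A replicate 2 lay lowest in its line for RBM3 and for HMGB1 (361 CPM of HMGB1, against 499 and 502 CPM in the other treated 22Rv1 libraries).

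CIRBP had other neighbours. ILF2, a partner of double-stranded RNA-binding proteins, had an r of 0.98 with CIRBP and 0.99 after group means were removed, and it was the first gene in both rankings. The lowest LNCaP library for CIRBP (101 CPM) was also the lowest for ILF2 (230 CPM, against 319 to 362 CPM in the other LNCaP libraries). MTHFD2 (0.89), UBE2Q1 (0.86), EIF1 (0.83) and LMAN2 (0.83) followed, and 2 of the 5 stayed among the first 5 after group means were removed. These are likenesses over 12 libraries that share line, arm and depth.

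**Figure D5:**
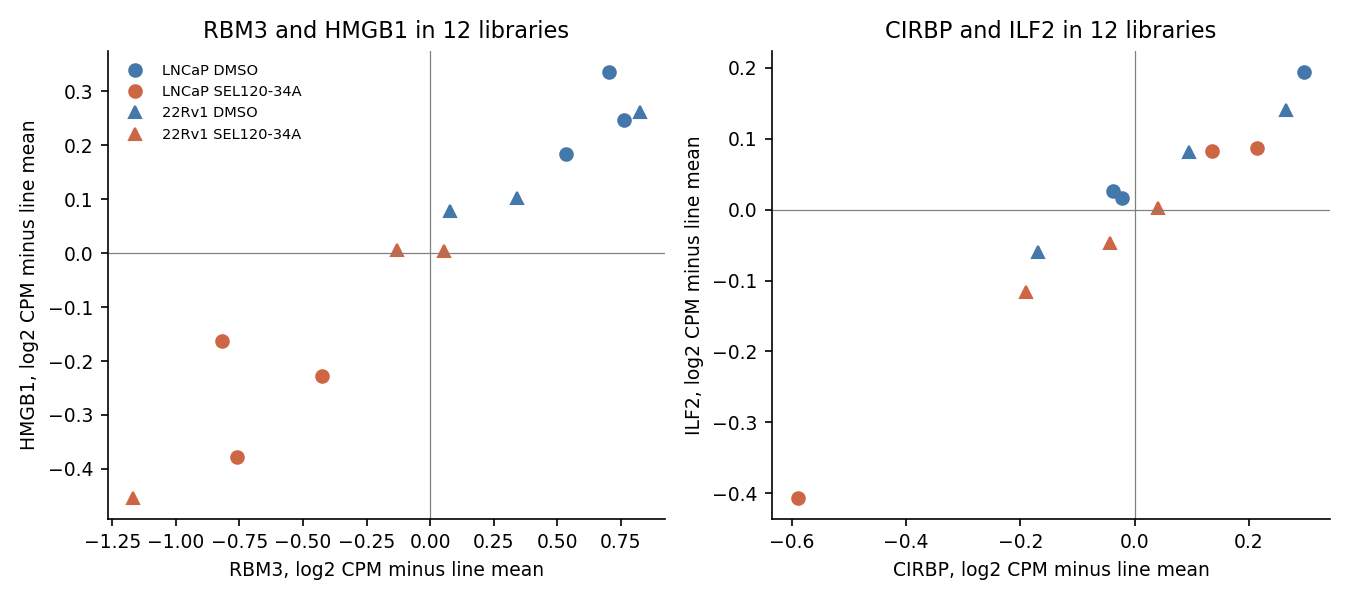
Line-centred log2 CPM of RBM3 against HMGB1 (left, r 0.97) and of CIRBP against ILF2 (right, r 0.98) in 12 libraries, with circles for LNCaP, triangles for 22Rv1, blue for DMSO and orange for SEL120-34A. On the left treated libraries lie towards the low end, and on the right both arms are mixed with 1 treated LNCaP library far below the rest.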

How the data were processed

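Groups and replicate numbers came from the sample labels, which do not say whether replicates were separate cultures. The study's methods describe its experiments in general as done in biological replicates unless noted. P-values measure the spread between these libraries. The authors aligned and counted BRB-seq reads with STARsolo (GRCh38.p13, GENCODE 43) and deposited raw counts per gene for 62703 genes. Whether molecular identifiers were collapsed or strand was used is not given in the sources used here, so intervals and floors cover counting error only. Besides the counts, the authors deposited log2 CPM for 9638 genes, which the counts reproduced to within 4.97e-14 with a prior count of 2. Coordinates are from GENCODE 44.

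The 12 LNCaP and 22Rv1 libraries were fitted with edgeR 4.0.16 in R 4.3.3 (4 group means, TMM, filterByExpr, 7086 genes kept, quasi-likelihood F-test, 8 residual degrees of freedom). P-values were adjusted over all tested genes by the Benjamini-Hochberg method, with a threshold of 0.05. Levels are TMM-scaled CPM over 14 libraries. Members and lists were chosen with earlier results of these data known. Up to 4 genes per list were named, by smallest adjusted p among called genes with a mean of at least 20 counts, otherwise the 2 of highest count, and for each member the 5 genes most like it. The values of 1 gene that this rule names are not reported here. The lists were RBM-numbered genes, cold shock domain proteins, temperature sensing and splicing control, described target transcripts, core clock genes and heat shock genes. Alternatives were a replicate block, other scalings, filters, depths and sample sets, each library left out, DESeq2 1.42.0 and limma-trend 3.58.1. No protein sequence was used here.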

Additional observations from a re-analysis of the deposited data

Results flagged for a closer look

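HSP90AA1 differed between the lines in its response to SEL120-34A. The effect in LNCaP minus that in 22Rv1 was 0.78 ± 0.20 on the log2 scale (SE, edgeR adjusted p 0.0461), where the gene changed by -0.10 in LNCaP and by -0.88 in 22Rv1. The adjusted p was close to the threshold of 0.05, and this difference is not given over the alternatives.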

How the results depend on the processing

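RBM3 kept a negative log2 fold change in LNCaP (-1.50 to -1.15) and in 22Rv1 (-0.95 to -0.47) over 22 alternatives. Limma-trend gave -1.37 in LNCaP and -0.84 in 22Rv1. Fits that left out 1 library gave -1.50 to -1.24 in LNCaP and -0.95 to -0.47 in 22Rv1. Between the DMSO groups, where RBM3 was tested, they gave -0.60 to -0.24, with the call lost in 2, and it was lost with the DESeq2 Wald test (-0.45) and limma-trend (-0.41). The causes were not tested.

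Called genes numbered 196 in LNCaP, 404 in 22Rv1, 52 for the difference between the lines and 3473 between the DMSO groups. With at least 10 counts in every library they were 122 in LNCaP, 29 for the difference and 1503 between the DMSO groups, where 2870 genes were tested. Thinning to the smallest total gave 109, 32 and 2036 for the same comparisons. Without a filter 260 were called in 22Rv1. The DESeq2 Wald test gave 101 in LNCaP and 255 in 22Rv1, and limma-trend gave 41, 201 and 5 in LNCaP, 22Rv1 and the difference. Leaving out 1 library gave 87 to 239 in LNCaP, 158 to 446 in 22Rv1, 24 to 57 for the difference and 3038 to 3723 between the DMSO groups. The LNCaP count was lowest without DMSO replicate 2 (121) or 3 (88) or SEL120-34A replicate 1 (89) or 2 (87) of LNCaP, and the 22Rv1 count without DMSO replicate 2 (268) or 3 (229) or SEL120-34A replicate 1 (217) or 2 (158) of 22Rv1. Of the genes most like RBM3 and CIRBP, 0 and 2 of 5 stayed after group means were removed.

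Deviations of same-numbered libraries had correlations between arms of -0.05 to 0.12. At this depth such values cannot decide whether the libraries were paired, and the labels do not say. With the replicate block, 240 genes were called in LNCaP, 450 in 22Rv1, 68 for the difference and 3507 between the DMSO groups, RBM3 changed by -1.31 in LNCaP and -0.75 in 22Rv1, and the DMSO comparisons of RBM3 and CIRBP kept their side of the threshold. Depth limits the tests of the lists, since 7086 of 62703 genes could be tested.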
